A study of Drosophila melanogaster with 8 samples.

Results

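Fatty acid desaturases are the enzymes that place a double bond in an acyl chain, and 7 such genes of Drosophila melanogaster were looked up by their CG identifiers: Desat1 (CG5887), Desat2 (CG5925), Fad2 (CG7923), CG8630, CG9743, CG9747 and CG15531. Of these, 6 genes had rows in the deposited table, with 11 transcripts among 18387 transcripts of 11500 genes, and Fad2 was not analysed here. The genes were chosen by identifier and not by their values. The data are polyA+ RNA-seq of whole heads of Canton-S flies, a wild-type laboratory strain, kept in the cold (18°C), at 25°C or in the warmth (29°C), in cycles of light and dark. There were 3 libraries at 18°C and 3 at 29°C, taken at ZT3 (3 hours after lights on), ZT15 and late in the night (ZT23 in the labels, an earlier hour of the night in the study's methods), and 2 libraries at 25°C, taken at ZT3 and ZT15. Each temperature and time point had 1 library from pooled heads, so libraries of different times stand in for replicates of their temperature, and their spread includes changes over the day. All groups shared the strain, and no mutant, transgene or drug was part of these libraries. The age and sex of the flies are not given in the sources used here.

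A desaturase takes a saturated fatty acid bound to coenzyme A and, with electrons passed along by cytochrome b5, removes 2 hydrogens from the chain. The kinked chains that result pack less tightly, and in many animals without internal heat control membranes hold more of them in the cold, which keeps the bilayer fluid. In flies, Desat1 makes the monounsaturated fatty acids of the whole body and also feeds the synthesis of cuticular hydrocarbons, the waxes that waterproof the fly and serve as pheromones. Desat2 is known for a particular class of female hydrocarbons found in some strains, and Fad2 for the female diene hydrocarbons made in oenocytes. No physiological role is given here for CG8630, CG9743, CG9747 and CG15531, which are named as desaturases by sequence family.

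The genes lie on 1 chromosome arm, apart from Fad2. In the BDGP6 annotation, Desat1, Desat2, CG8630, CG9743, CG9747 and CG15531 are all on 3R and Fad2 is on 3L. CG9747, CG15531 and CG9743 are direct neighbours on the minus strand, with gaps of 3537 bp between CG9747 and CG15531 and 131 bp between CG15531 and CG9743. The deposited values were made on the dm3 build, so no coordinates are given, and whether the counting used strand is not given in the sources used here. Desat2 overlaps CG46427 and CG17207 on the other strand, and reads from such pairs cannot be told apart without strand. The other 5 genes with rows overlap no annotated gene.

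Levels are the deposited average coverage per base pair, scaled so that each library sums to 1000000, and differences were taken on log2(scaled value + 1), which understates changes of low transcripts. The deposited sums lay between 92886 and 108550, and the read depth behind them is unknown. A filter on the mean over the libraries, at 1 or more on this scale, kept 14799 transcripts, among them 10 of the 11 desaturase transcripts, from 5 of the 6 genes. Photoreceptor and neuron markers were present in every library, with ninaE, the main rhodopsin, at scaled values of 6883 to 17000. The 29°C ZT15 library stood apart: 237 transcripts were over 20-fold above every other library there, against 0 in each of the other libraries, and 590 transcripts were listed at 0, against 1435 to 1612 elsewhere. The summed level of 5 midgut markers was 698.8 in that library and 2.855 to 5.223 in the others, and accessory gland markers summed to 120.9 against at most 0.3605.

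Desat1 dominated the family in the head. Its leading transcript, CG5887-RC, made up 88.3% to 95.55% of the summed level of the members' leading transcripts in each library, and the gene ranked 113 among the 11500 genes by mean level. CG9747 ranked 1594, CG8630 ranked 2497 and CG9743 ranked 4394. The lowest Desat1 library was 813.9 and the highest library of any other member was 56.4, so Desat1 stood above all of them in every library. Among the rest the order of mean levels was CG9747 at 40.32, CG8630 at 25.45 and CG9743 at 12.86, and the neighbouring ranges overlapped. Desat2 and CG15531 were at or close to the bottom of the scale.

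CG9747 was higher in the cold. Its level at 18°C was 55.33 at ZT3, 56.4 at ZT15 and 51.48 late at night. At 25°C it was 29.97 at ZT3 and 34.05 at ZT15, and at 29°C it was 30.13, 32.36 and 32.8. Every library at 18°C was above every library at 25°C and 29°C, and the 25°C and 29°C values overlapped. The 18°C mean was 54.4 ± 2.59 (SD, n = 3). The other means were 32.0 ± 2.89 (25°C, SD, n = 2) and 31.8 ± 1.43 (29°C, SD, n = 3), so the gene was 1.71-fold higher at 18°C than at 29°C. Groups also failed to overlap, with the warmer one lower, for 30.5% of all tested transcripts between 18°C and 29°C and for 38.6% between 18°C and 25°C.

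**Figure D1:**
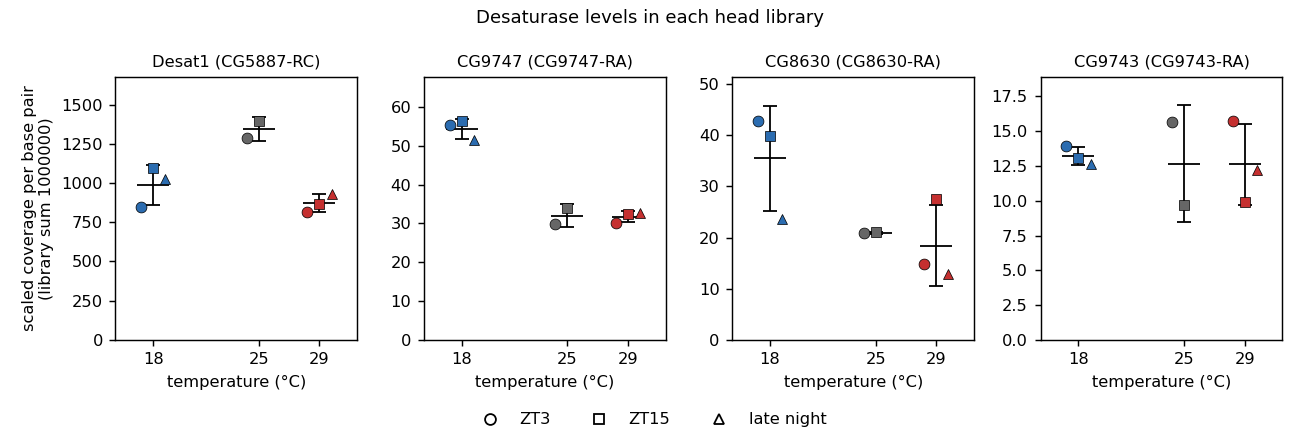
Scaled coverage per base pair (vertical axis, from 0) of the leading transcript of 4 desaturase genes against temperature in °C; each point is 1 library, its shape gives the time point, and the bar and whiskers are the mean ± SD. The 3 CG9747 libraries at 18°C sit between 51.48 and 56.4 and all others between 29.97 and 34.05, while both Desat1 libraries at 25°C sit above all its others.

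In the limma model over all 8 libraries, CG9747 fell by 0.76 on the log2 scale from 18°C to 29°C (SE 0.10, 95% interval -0.99 to -0.53, limma adjusted p = 0.00168). From 18°C to 25°C it fell by 0.75 (SE 0.11, limma adjusted p = 0.0277). Between 25°C and 29°C the difference was -0.01 with a 95% interval of -0.27 to 0.25 (limma adjusted p = 0.964). At matched times the fall from 18°C to 29°C was -0.86 at ZT3, -0.78 at ZT15 and -0.64 late at night. The call between 18°C and 29°C held under 19 of 19 alternative settings, with values of -0.82 to -0.56. The call between 18°C and 25°C held under 15 of 19: the adjusted p was 0.114 without the 18°C ZT3 library, 0.0903 without 18°C ZT15, 0.153 without 25°C ZT3 and 0.0509 without 29°C ZT3, with falls of -0.84 to -0.66 over the single libraries left out.

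CG9747 is a bulk head measurement, in which fewer cells of a type and less RNA per cell cannot be told apart. Markers of glia were also highest at 18°C, and their sum, unlike CG9747, was lower again at 29°C than at 25°C. The 4 markers summed to 1592 to 1678 at 18°C, 1201 to 1297 at 25°C and 816.4 to 961.3 at 29°C, and 4 of 4 (nrv2, Eaat1, Gs2 and repo) fell from 18°C to 29°C by the same test, none of them at 0. From 18°C to 25°C, 1 of the 4 fell. From 25°C to 29°C 0 of the 4 were called, with a median of -0.46, against -0.01 for CG9747. Of 8 fat body markers, 4 were also called lower at 29°C than at 18°C (Yp2, apolpp, Fbp1 and Fbp2) and 1 higher. The log2 differences were -0.92 for Yp2 and -0.90 for apolpp. Fbp1 and Fbp2 averaged under 1 at 25°C and at 29°C. They passed the filter only through 18°C, so their calls are not evidence of a fall. Of 12 head markers 3 rose (ninaE, trp and Rh6) and 2 fell. Over all leading transcripts (the highest of each gene), 16.2% were called lower and 14.2% higher at 29°C. Between 18°C and 25°C 7.08% were called. The part of the glia, fat body and head markers in the CG9747 and CG8630 results was not tested.

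CG8630 also had its highest libraries at 18°C, with a wide spread. Its level at 18°C was 42.8 at ZT3, 39.93 at ZT15 and 23.66 late at night. At 25°C it was 20.84 and 21.1, and at 29°C it was 14.78 at ZT3, 27.51 at ZT15 and 12.96 late at night. The late-night library at 18°C was below the ZT15 library at 29°C, so these groups overlapped, while each 18°C library was above its 29°C partner of the same time. The 3 libraries at 18°C were all above those at 25°C, as they were for 38.6% of all tested transcripts.

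CG8630 averaged 35.5 ± 10.3 in the 18°C libraries (SD, n = 3), 20.97 ± 0.184 in those at 25°C (SD, n = 2) and 18.4 ± 7.93 in those at 29°C (SD, n = 3). The fall from 18°C to 29°C was 0.94 on the log2 scale (SE 0.29, limma adjusted p = 0.0413), and at matched times it was -1.47 at ZT3, -0.52 at ZT15 and -0.82 late at night. This call held under 9 of 19 alternative settings. The adjusted p was 0.147 without 18°C ZT3, 0.129 without 18°C ZT15, 0.0596 without 25°C ZT3, 0.0594 without 25°C ZT15, 0.126 without 29°C ZT3 and 0.122 without the late-night 29°C library, with values of -1.25 to -0.74 over all libraries left out. Without the 29°C ZT15 library, the one that stood apart, the difference was -1.25 (limma adjusted p = 0.00377). The difference from 18°C to 25°C was -0.69 (limma adjusted p = 0.19), and with a replicate block for the time point it became a call, at -0.92 (adjusted p = 0.0329). Between 25°C and 29°C the difference in the main model was -0.25 with a 95% interval of -0.997 to 0.493.

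Desat1 had its highest libraries at 25°C. The level of CG5887-RC at 18°C was 846.5 at ZT3, 1095 at ZT15 and 1023 late at night. At 25°C it was 1288 at ZT3 and 1396 at ZT15, and at 29°C it was 813.9, 867.6 and 928.4. Both 25°C libraries were above all libraries at the other temperatures, and the 18°C and 29°C values overlapped. Desat1 averaged 988 ± 128 in the 18°C libraries (SD, n = 3), 1342 ± 76.7 in those at 25°C (SD, n = 2) and 870.0 ± 57.3 in those at 29°C (SD, n = 3). Among all tested transcripts, 11.5% had 25°C above 18°C with no overlap and 13.2% had 29°C below 25°C with no overlap.

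These Desat1 differences did not pass the threshold in the main model. The rise from 18°C to 25°C was 0.45 (SE 0.14, 95% interval 0.13 to 0.77, limma adjusted p = 0.0732). From 25°C to 29°C it was -0.63 (SE 0.14, 95% interval -0.94 to -0.31, limma adjusted p = 0.0695). With a replicate block for the time point both became calls, at 0.49 (limma adjusted p = 0.0265) and -0.66 (limma adjusted p = 0.0382). Quantile normalization brought the rise from 18°C to 25°C down to 0.16 (limma adjusted p = 0.556). Between 18°C and 29°C the difference was -0.18 with a 95% interval of -0.46 to 0.11 (limma adjusted p = 0.307), and quantile normalization made it a call, at -0.51 (limma adjusted p = 0.028).

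The summed level of 8 fat body markers was also highest at 25°C. It was 13970 to 20400 at 18°C, 44330 to 48560 at 25°C and 10230 to 17090 at 29°C, most of it from the genes for yolk proteins (Yp1 to Yp3), which female fat body expresses. From 18°C to 25°C, 4 of the 8 rose by the limma test (Lsd-1, Yp1, Yp2 and Yp3), and from 25°C to 29°C 2 of the 8 fell. Over all leading transcripts, 7.08% and 1.17% were called in these comparisons, in either direction. Fbp1 and Fbp2 had another order, with means of 2.84 and 7.74 at 18°C, 0.609 and 0.887 at 25°C and 0.0549 and 0.156 at 29°C. Ovary markers also had a higher sum at 25°C, at 3.404 and 2.389, than at 18°C, at 0.03649 to 0.1673. At 29°C their sum was 0.07952 at ZT3, 53.57 at ZT15 and 0.1561 late at night. The part of fat body and ovary markers in the Desat1 values was not tested.

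CG9743 passed no test between temperatures. Its level was 13.95, 13.11 and 12.64 at 18°C, 15.66 and 9.689 at 25°C, and 15.74, 9.926 and 12.19 at 29°C, in the order ZT3, ZT15 and late night. All 3 groups overlapped. Its difference was -0.09 from 18°C to 29°C, with a 95% interval of -0.53 to 0.36 (limma adjusted p = 0.771). It was -0.09 from 18°C to 25°C, with an interval of -0.59 to 0.41, and from 25°C to 29°C 0.01 with an interval of -0.49 to 0.51.

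**Figure D2:**
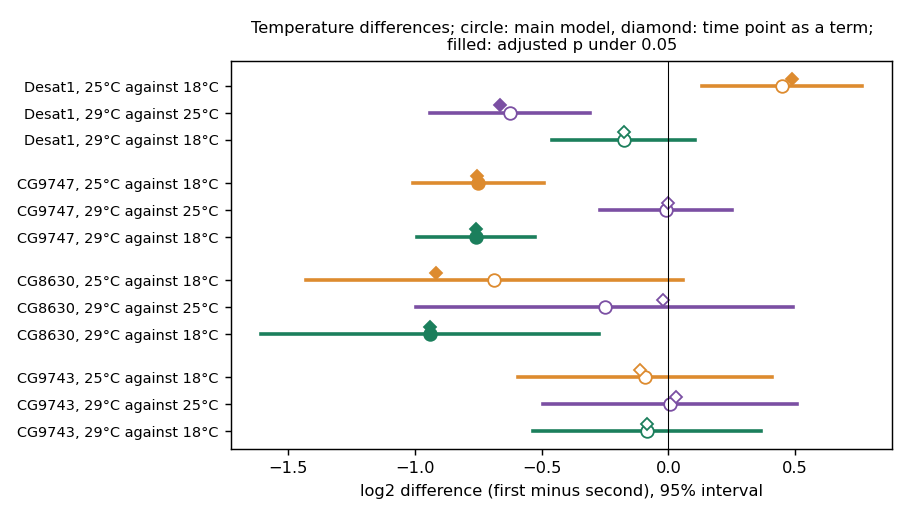
log2 differences between temperatures (horizontal axis) of the leading transcripts of 4 desaturase genes; circles and lines are the main limma model with 95% intervals, diamonds the model with the time point as a term, and filled symbols have an adjusted p under 0.05. CG9747 is filled for both comparisons with 18°C under both models, and Desat1 is filled for both comparisons with 25°C only with the time point as a term.

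Counted over the 10 desaturase transcripts tested, 2 were called between 18°C and 29°C, both lower at 29°C, against a background of 29.2% of all 14799 transcripts, or 18% in that direction. Between 18°C and 25°C 1 was called, CG9747-RA, against 8.2% of all transcripts, or 6.62% lower at 25°C. Between 25°C and 29°C 0 of 10 were called, against 0.932%. The 5 Desat1 transcripts share most of their sequence and are not separate evidence, and the 2 CG15531 transcripts passed the filter through 1 library. The median of all tested transcripts was -0.08 between 18°C and 29°C, -0.16 between 18°C and 25°C and 0.12 between 25°C and 29°C. Scaling to the 75th percentile moved these medians to 0.11, 0.06 and 0.09, and the share of calls that were higher in the warmer group from 38.5% to 68.7%, from 19.4% to 74.9% and from 38.4% to 37.6%. Without scaling between libraries the last share was 84.9%. CG9747 stayed lower at 25°C and at 29°C than at 18°C under every scaling tried.

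CG15531 had signal in 1 library. CG15531-RA was at 8.46 and CG15531-RB at 8.32 in the 29°C ZT15 library. In the other 7 libraries CG15531-RA was between 0 and 0.115, with the 18°C ZT3 library listed at 0. Without the 29°C ZT15 library the mean of CG15531-RA was 0.0573 and that of CG15531-RB 0.0527, below the filter, so no test is given. The library with this signal is the one with the high midgut, accessory gland, testis and ovary markers. Testis markers summed to 11.86 there against at most 1.196 elsewhere, and ovary markers to 53.57 against at most 3.404. The ovary sum was 3.404 and 2.389 in the libraries at 25°C, and at most 0.1673 in those at 18°C and the remaining ones at 29°C. Oenocyte markers also had their highest sum there, at 21.74 against at most 8.614. Of these, FarO was higher in the 29°C ZT3 library, at 8.304 against 4.258. The neighbours of CG15531 on the chromosome were not raised in the 29°C ZT15 library, where CG9747 was 32.36 and CG9743 was 9.926. The part of other tissues in the CG15531 signal was not tested.

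Desat2 did not pass the filter, with a mean of 0.116. CG5925-RA was 0.0615, 0.115 and 0.0175 at 18°C, 0.19 and 0.0716 at 25°C, and 0.137, 0.111 and 0.223 at 29°C. The groups overlapped, no test is given, and at this level a difference was not detectable. The gene ranked 9760 among 11500.

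Time of day was compared with temperature as a term in the model. No transcript of any gene was called between ZT15 and ZT3, between late night and ZT3 or between late night and ZT15 (0% of 14799 each by limma), although 23.7%, 14.8% and 24% had an unadjusted p under 0.05. CG9743 was lower at ZT15 than at ZT3 in 3 of 3 temperatures, by -0.08 at 18°C, -0.64 at 25°C and -0.62 at 29°C. Its mean was 15.1 ± 1.01 (SD, n = 3) at ZT3, 10.9 ± 1.91 (SD, n = 3) at ZT15 and 12.4 ± 0.316 (SD, n = 2) late at night, and the fitted difference from ZT3 to ZT15 was -0.45 (SE 0.13, limma adjusted p = 0.187). CG8630 was lower late at night than at ZT15 by 0.82 on the log2 scale (limma adjusted p = 0.108) and than at ZT3 by 0.56 (limma adjusted p = 0.322), in both temperatures that have a late-night library. Desat1 was higher at ZT15 than at ZT3 in 3 of 3 temperatures, by 0.19 in the model (limma adjusted p = 0.231). The median of all tested transcripts in that comparison was 0.14. With 75th percentile scaling the Desat1 difference was 0.08 and the median 0.04. None of these differences of CG9743, CG8630 and Desat1 passed the threshold.

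**Figure D3:**
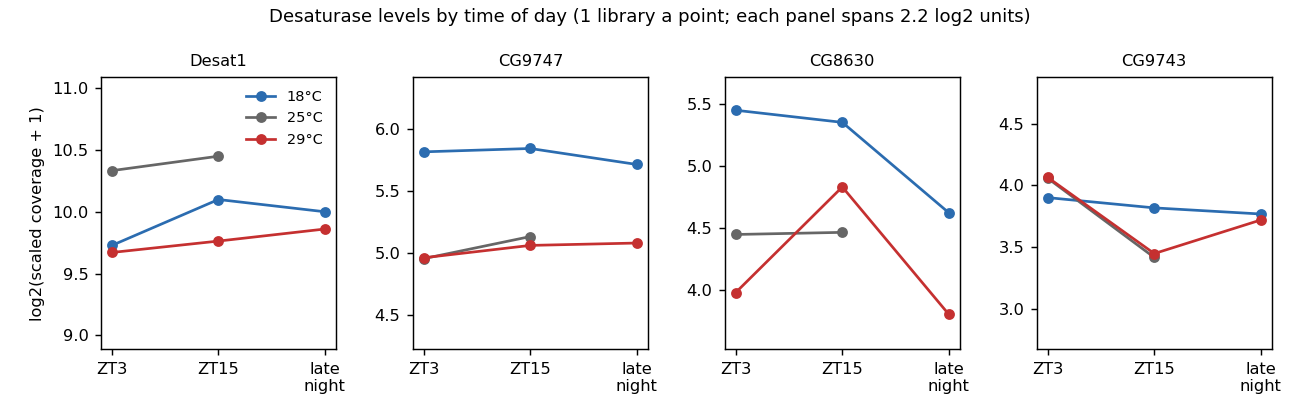
log2(scaled coverage + 1) of 4 desaturase genes at ZT3, ZT15 and late night, with 1 line per temperature and 1 library per point; every panel spans the same range. CG9743 drops from ZT3 to ZT15 by 0.64 at 25°C and 0.62 at 29°C but by 0.08 at 18°C, and CG8630 at 29°C peaks at ZT15.

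Desat1 had the most listed transcripts of any member. Its 5 annotated transcripts, RA to RE, have 1 coding model of 1149 bp and share 1837 bp, which is 90.99% to 94.98% of their lengths in BDGP6. Each has a first exon of its own, which is noncoding. An average over a whole transcript is therefore dominated by the shared part, and the 5 values stayed within 0.9829 to 1.019 of their mean in every library. No Desat1 transcript passed the test of change relative to the others between 18°C and 29°C. The difference of the log2 ratio for CG5887-RC was -0.001 (limma adjusted p = 0.960), and 0 of the member transcripts were called against 0.685% of 9340 tested.

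CG5887-RC was nevertheless the Desat1 transcript with the most coverage on its own sequence. Multiplying each value by the transcript's BDGP6 length gave summed coverages for RA, RB, RD and RE within 0.244% of the lowest one, and for RC 4.234% to 5.537% above it. Per base pair, the own sequence of RD had 0.02117 to 0.04636 of the coverage of the shared part. RE was the lowest in every library, so its own coverage is 0 by construction. Per base pair, the coverage of the 182 bp first exon that RC alone holds was 0.541, 0.540 and 0.569 of that of the shared part at 18°C. At 25°C it was 0.446 and 0.480, and at 29°C it was 0.542, 0.511 and 0.592, in the order ZT3, ZT15 and late night. Both 25°C libraries were below all others, in the libraries where the gene as a whole was highest. The RC-only coverage itself, in deposited values per base pair, was 59.41 and 65.33 at 25°C and 44.41 to 61.9 in the others. The lower ratio at 25°C is therefore not a lower level of the RC exon. No share over other genes was computed for this ratio. The test on the whole-transcript ratio of RC called neither comparison with 25°C, with differences of -0.012 from 18°C to 25°C (limma adjusted p = 0.329) and 0.011 from 25°C to 29°C (limma adjusted p = 0.218). The first-exon measure was chosen after its values were seen, assumes that the dm3 and BDGP6 models have the same lengths and that the lowest summed coverage comes from the shared part alone, and is given with no test.

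**Figure D4:**
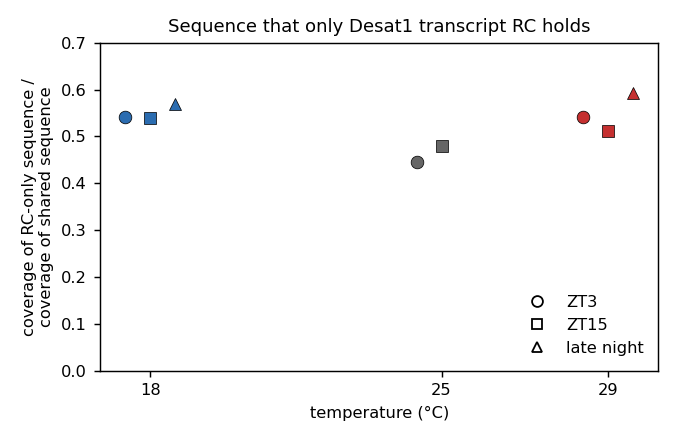
Coverage per base pair of the part held by Desat1 transcript RC alone, divided by that of the part shared by all 5 transcripts (vertical axis, no unit, from 0), against temperature in °C; each point is 1 library and its shape gives the time point. The 25°C points are 0.446 and 0.480 and all others lie between 0.511 and 0.592.

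The other genes of the pathway were counted by their leading transcripts, of which 30.3% were called between 18°C and 29°C over all genes, 14.2% higher and 16.2% lower at 29°C, with a median difference of -0.02. Among 12 genes of lipogenesis and its regulation, 3 fell and 0 rose, with a median of -0.11. They were ACC, which makes malonyl-CoA (-0.60), Men, which makes NADPH (-0.82), and mdy, which makes triglycerides (-0.94). The fatty acid synthase FASN1 was at 211 ± 32.6 at 29°C and 216 ± 35.7 at 18°C (SD, n = 3 each), and SREBP, the regulator of lipogenesis, at 90.7 ± 6.10 and 82.4 ± 7.36. Neither passed the test.

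Of 13 genes listed for acyl-CoA supply or electron transfer to desaturases, 1 fell and 0 rose: Fatp1, a fatty acid transport protein, by -0.71. The electron carrier Cyt-b5 was at 199 ± 5.30 at 29°C and 170 ± 21.2 at 18°C (SD, n = 3 each), a difference of 0.23 (limma adjusted p = 0.193). Cyt-b5-r was at 465 ± 114.8 and 451 ± 37.9, a difference of 0.01 (limma adjusted p = 0.974). Whether Cyt-b5-r passes electrons to desaturases is not given in the sources used here. Of the enzymes listed as other desaturase-fold or lipid hydroxylase enzymes, the sphingolipid desaturase ifc was at 20.03 ± 4.72 and 18.3 ± 2.36. It did not pass the test, and Fa2h did not pass the filter.

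Among 21 phospholipid genes, 2 rose and 4 fell. Those that rose were CG33116 (0.70) and Agpat4, an acyltransferase of phosphatidic acid synthesis (0.66). The largest falls were in Cds, which makes CDP-diacylglycerol (-0.64), and LPCAT, which puts acyl chains back on lysophospholipids (-0.63). Among 6 hydrocarbon genes 1 rose, FarO, a fatty acyl reductase of oenocytes, from 0.587 ± 0.0912 to 4.97 ± 3.04 (SD, n = 3 each).

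Fatty acid oxidation and lipolysis had the most calls, with 6 of 13 genes lower and 1 higher at 29°C and a median of -0.39. yip2, a thiolase, fell by 1.24 on the log2 scale, Mtpalpha, of the mitochondrial trifunctional protein, by 0.59, and whd, the carnitine palmitoyltransferase, by 0.55. Lsd-1, a lipid droplet protein, rose by 0.56. In the same comparison 4 of 8 fat body markers (median -0.74) and 4 of 4 glia markers (median -0.91) fell. The 4 fat body markers include Fbp1 and Fbp2, which passed the filter only through 18°C. The part of fat body and glia markers in the lipid gene counts was not tested. Between 18°C and 25°C, where 7.08% of leading transcripts were called, the 1 called gene of these lists was Lsd-1 (0.69), and between 25°C and 29°C, where 1.17% were called, it was Men (-0.73).

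**Figure D5:**
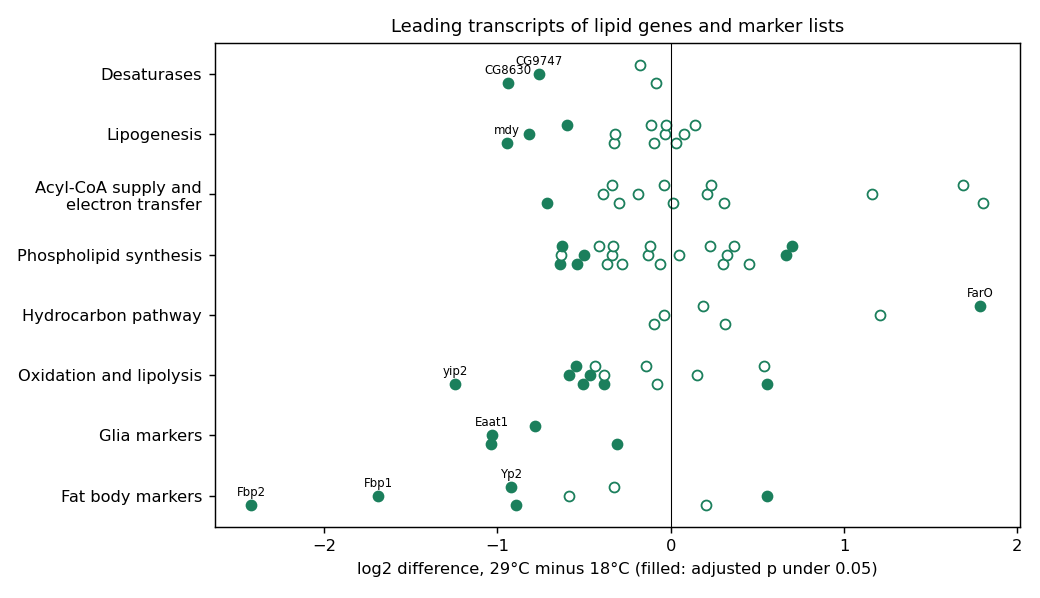
log2 difference between 29°C and 18°C (horizontal axis) of the leading transcript of each gene in the lists, 1 point per gene, filled where the adjusted p is under 0.05. Of the 4 desaturases shown, CG9747 and CG8630 are filled and to the left of 0, as are 6 of 13 oxidation and lipolysis genes and 4 of 4 glia markers.

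Without the 29°C ZT15 library, 11.5% of all leading transcripts were called higher and 19.4% lower at 29°C. There, 3 of 11 lipogenesis genes fell, and of 11 acyl-CoA and electron transfer genes 2 fell and 1 rose. Of 21 phospholipid genes 6 fell and 1 rose, and of 13 oxidation and lipolysis genes 7 fell and 1 rose. Of 4 hydrocarbon genes 1 rose, again FarO, with the limit given above. Of the 4 glia markers 3 fell.

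The genes most like each member were found by the Pearson correlation of log2 levels over the 8 libraries, among 6731 genes with a mean of at least 5, as a description in which all points share temperature, time and library. For CG9747 they were drpr, an engulfment receptor of glia (r = 0.997), Mp, a collagen (0.990), and phtf (0.988). For CG8630 they were Pomp (0.986), Zip71B, a zinc transporter (0.979), and Plod, a collagen lysyl hydroxylase (0.975). For Desat1 they were the nuclear receptor svp (0.962), the cytochrome P450 Cyp4ac1 (0.927) and Oli (0.919). For CG9743 they were CG9649 (0.941), CG3505 (0.939) and CG32407 (0.938). Among the members themselves, r was 0.775 between CG9747 and CG8630 and between -0.218 and 0.059 for the other 5 pairs of the 4 genes.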

How the data were processed

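The authors extracted RNA from fly heads and made polyA+ RNA-seq libraries by a ligation-based method. They deposited a table of signal, the mean coverage along each annotated transcript, per base pair, on the dm3 build. Their processing notes name Bowtie2, TopHat and Cufflinks, with no version. The values are not counts and the depth is unknown, so no count test or counting interval was used. 75 columns had no name, 56 of them with stray values in 99 rows, and none was used. Symbols were matched for 11288 of 11500 genes.

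Each library was scaled to 1000000 and log2(scaled value + 1) was fitted with limma 3.58.1 in R 4.3.3 over all 8 libraries, for transcripts with a mean of at least 1 (two-sided, Benjamini-Hochberg over 14799 transcripts, threshold 0.05). Temperatures were compared without a block, with time points as replicates. Times of day were compared with temperature as a term. Transcript ratios were tested within genes. The replicate numbers pair libraries by the time point in the labels; deviations of same-time libraries at 18°C and 29°C correlated at 0.096, 0.164 and 0.311. P-values measure the spread between these libraries, whose separate cultures are not stated. Scripts were tested on simulated data. Tables and plots used Python 3.11.15, pandas 2.3.3 and matplotlib 3.10.9.

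Alternatives were pseudocounts of 0.1 and 5, no filter, a minimum mean of 5, 75th percentile scaling, quantile normalization, no scaling, limma's trend option, sums over the transcripts of a gene, the replicate block and leaving out each library. ZT3 and ZT15 libraries alone, the Desat1-RC description and the list counts without the 29°C ZT15 library were added after seeing the data. The members, lists and tests were chosen with earlier results of these data known. Genes named from a list are up to 4 with the largest called differences between 18°C and 29°C; FASN1, SREBP, Cyt-b5, Cyt-b5-r and ifc were named in addition for their roles, after their values were seen. The nearest genes are the 3 with the highest correlation.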

Additional observations from a re-analysis of the deposited data

Results flagged for a closer look

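CG8630 had differences of opposite sign between 25°C and 29°C at the 2 times that both temperatures share. The difference was -0.469 on the log2 scale at ZT3 and 0.367 at ZT15, each from 1 library against 1. Both are smaller than the SD of a difference between 2 single libraries of this transcript, 0.508. The difference between the time points was not tested, and the ZT15 library at 29°C is the one that stood apart.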

How the results depend on the processing

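Of the member transcripts, 2 were called between 18°C and 29°C. The number was 1 with a pseudocount of 0.1, with no filter, with 75th percentile scaling and with no scaling, 5 with quantile normalization, and 1 to 2 over single libraries left out. Between 18°C and 25°C, where 1 was called, it was 6 with a pseudocount of 5, with 75th percentile scaling and with limma's trend option, 7 with the replicate block, and 0 to 1 over single libraries left out. Between 25°C and 29°C, where 0 were called, it was 5 with a pseudocount of 5, 75th percentile scaling, trend or the replicate block, and 4 with a minimum mean of 5. The block changed no call of a leading transcript beyond those of Desat1 and CG8630 given above. CG5887-RC was called under 1, 4 and 4 of 19 alternatives in these comparisons. No call was made between times of day or for transcript ratios between 18°C and 29°C under any alternative run for them. The cause of these changes was not tested.

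Directions turned only for differences that were not called. With 75th percentile scaling they were 0.027 for Desat1 between 18°C and 29°C, and for CG9743 0.105 between 18°C and 29°C, 0.131 between 18°C and 25°C and -0.026 between 25°C and 29°C. With quantile normalization CG9743 gave 0.121 between 18°C and 25°C and -0.141 between 25°C and 29°C. With no scaling CG9743 gave 0.051 between 18°C and 29°C, and CG9747 0.099 between 25°C and 29°C. Over single libraries left out, CG9743 ranged from -0.245 to 0.063 between 18°C and 29°C, from -0.412 to 0.228 between 18°C and 25°C and from -0.313 to 0.327 between 25°C and 29°C, and CG9747 from -0.098 to 0.080 between 25°C and 29°C.

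The read depth is unknown, so counting error could not be separated from the spread between libraries.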
